A study of Mus musculus with 3 samples.

Results

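Noncanonical imprinting is the silencing of a maternal allele by H3K27me3, trimethylation of histone H3 lysine 27, that the oocyte hands on to the embryo without DNA methylation at the promoter. Here H3K36me3, a mark laid down over transcribed gene bodies, and the called domains of H3K27me3 and H3K4me3 were described along 5 mouse genes listed for this kind of imprinting: *Sfmbt2*, *Gab1*, *Jade1*, *Slc38a4* and *Smoc1*. The main start of *Slc38a4* was called for H3K36me3 and not for H3K27me3, and DNA methylation was not analysed here. All windows of 2 kb that overlapped these genes or the 20 kb on either side were taken, which gave 398 of the 1186323 valid windows of the genome. Of these, 117 belonged to *Sfmbt2*, 79 to *Gab1*, 52 to *Jade1*, 49 to *Slc38a4* and 101 to *Smoc1*.

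The data came from 3 libraries of ultra-low-input native ChIP-seq, in which chromatin is pulled down with an antibody without cross-linking. Each library was made from a pool of about 280 fully-grown germinal vesicle (GV) oocytes, which have ended their growth and still hold an intact nucleus, from wildtype C57BL6/Babr females 25 days old. All 3 belonged to a single group, and the sources used here do not say whether the pools came from separate mice, so the spread between replicates may be technical. The amount of antibody was lower for replicate 2 than for the rest.

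In oocytes, H3K36me3 follows transcription, and DNA methylation is laid down where it lies, which is how the maternally methylated imprints arise. H3K27me3 is written by Polycomb repressive complex 2 and covers broad regions of the oocyte genome that are not transcribed. H3K4me3, the mark of active promoters, also forms broad domains in these cells, and promoters that carry H3K4me3 together with H3K27me3 are called bivalent. The genes have diverse products. *Sfmbt2* encodes a Polycomb group protein with MBT repeats and holds a large cluster of microRNAs in an intron, *Gab1* a docking protein of receptor tyrosine kinase signalling, *Jade1* a PHD finger protein of a histone acetyltransferase complex, *Slc38a4* a transporter of neutral amino acids, and *Smoc1* a secreted calcium-binding matrix protein. Their expression from the paternal allele is best known from the early embryo and the placenta.

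The RPKM values of the windows were whole multiples of the value of a single read, and the median window of the 5 loci held 2 reads in replicate 1 and 0 reads in each of the others. The loci held 1275, 459 and 430 reads in all, of 7888140, 2692510 and 3166564 in valid windows. Single windows are therefore imprecise, and levels below are means over many windows. The intervals given for levels are exact Poisson intervals at 95%, which cover counting error only. A window was called for H3K36me3 when its mean RPKM over the replicates was above 1. As a check of the cell type, all 10 oocyte markers had a body level above 1 (median 2.21 RPKM), as did 53.6% of all protein-coding genes. Of 6 markers of granulosa cells, the somatic neighbours of the oocyte, only *Hsd3b1* did (1.87 RPKM, median of the list 0.504). *Amh* came close at 0.991 RPKM. The start window was called for H3K36me3 in 2 of the 6, against 23% of start windows of all protein-coding genes. *Amh*, *Foxl2* and *Inha* each had only 1 body window.

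RefSeq (GRCm38.p6) held promoter sequences for 4 of the 5 genes, with 11 starts in all. The 250 bases before the start of 4 of these promoters are printed because they show the starts on which the results turn: the main start of *Slc38a4*, which lay in H3K36me3, an internal start of the same gene in H3K27me3, and the bivalent starts of *Gab1* and *Sfmbt2*. They are written 5′ to 3′ on the strand of the gene, with each CG in capitals.
Slc38a4, main start, chr15:97055957-97056206, minus strand: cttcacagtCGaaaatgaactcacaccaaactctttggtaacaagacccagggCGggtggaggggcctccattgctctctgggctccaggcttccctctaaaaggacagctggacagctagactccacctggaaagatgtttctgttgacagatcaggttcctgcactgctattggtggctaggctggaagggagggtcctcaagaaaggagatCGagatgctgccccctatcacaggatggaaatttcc
Slc38a4, internal start 24.7 kb into the gene, chr15:97031214-97031463, minus strand: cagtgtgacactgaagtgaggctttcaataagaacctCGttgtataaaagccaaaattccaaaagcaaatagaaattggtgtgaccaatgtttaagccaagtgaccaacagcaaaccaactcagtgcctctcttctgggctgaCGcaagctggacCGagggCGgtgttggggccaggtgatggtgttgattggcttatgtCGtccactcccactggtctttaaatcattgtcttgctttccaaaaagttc
Gab1, chr8:80880520-80880769, minus strand: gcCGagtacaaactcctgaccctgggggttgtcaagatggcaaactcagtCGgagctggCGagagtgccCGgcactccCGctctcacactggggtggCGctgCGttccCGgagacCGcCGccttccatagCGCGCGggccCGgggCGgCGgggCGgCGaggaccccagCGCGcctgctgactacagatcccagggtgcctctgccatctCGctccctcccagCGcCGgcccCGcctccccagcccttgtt
Sfmbt2, chr2:10370201-10370450, plus strand: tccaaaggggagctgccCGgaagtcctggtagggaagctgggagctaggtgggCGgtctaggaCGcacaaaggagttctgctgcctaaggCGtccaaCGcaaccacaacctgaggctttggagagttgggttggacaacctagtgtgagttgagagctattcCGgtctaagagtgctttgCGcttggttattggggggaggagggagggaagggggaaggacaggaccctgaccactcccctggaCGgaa
The main *Slc38a4* promoter held 3 CGs and the internal *Slc38a4* promoter 5. The printed *Gab1* promoter held 24 CGs and the printed *Sfmbt2* promoter 8. A second *Gab1* promoter that overlaps the first held 25, and a second *Sfmbt2* promoter, at a start 1.9 kb into the gene, held 15. Over all 32851 mouse promoters in the table, the median for a stretch of this length was 6 CGs, with quartiles of 2 and 16. At least 3 CGs were found in 71% of them, at least 5 in 55.6%, at least 8 in 43% and at least 24 in 12%. The 4 *Jade1* promoters in the table held 16, 6, 35 and 18 CGs in the direction of transcription.

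H3K36me3 was low across all 5 gene bodies, and H3K27me3 covered most of each. *Sfmbt2* (chr2:10370510-10595253, plus strand) had the lowest level, at 0.322, 0.257 and 0.147 RPKM in replicates 1, 2 and 3 (0.242 ± 0.089, SD, n = 3, 335 reads in 97 windows). The 95% intervals of its level ran from 0.282 to 0.366, from 0.198 to 0.329 and from 0.106 to 0.198 in the same order. *Gab1* (chr8:80764438-80880519, minus strand) lay at 0.321, 0.280 and 0.187 RPKM (0.263 ± 0.069, 210 reads in 58 windows). In both genes replicate 1 was highest and replicate 3 lowest.

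*Smoc1* (chr12:81026808-81186414, plus strand) had body levels of 0.402, 0.317 and 0.216 RPKM (0.312 ± 0.093, n = 3, 352 reads in 80 windows), in the same order of replicates. *Jade1* (chr3:41555731-41616864, plus strand) lay higher, at 0.552, 0.383 and 0.485 RPKM (0.473 ± 0.085, 194 reads in 30 windows). *Slc38a4* (chr15:96994820-97055956, minus strand) had the highest level, at 0.425, 0.665 and 0.557 RPKM (0.549 ± 0.120, 200 reads in 31 windows), and replicate 1 was the lowest there. In the order of levels neighbouring genes overlapped in their replicate values: *Sfmbt2* with *Gab1*, *Gab1* with *Smoc1*, *Smoc1* with *Jade1*, and *Jade1* with *Slc38a4*.

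For comparison, the mean over all valid windows of the genome was 0.902 RPKM and that over genic windows, whose midpoint lies in any annotated gene, 1.25 RPKM. Within each replicate the body level of each of the 5 genes was below the mean of all valid windows. The log2 ratio was -1.97 ± 0.59 for *Sfmbt2*, -1.82 ± 0.41 for *Gab1*, -1.58 ± 0.45 for *Smoc1*, -0.95 ± 0.26 for *Jade1* and -0.74 ± 0.33 for *Slc38a4* (SD, n = 3). Flipping the signs of the 3 ratios in an exact permutation test (two-sided) gave p = 0.25 for each gene (0.25 adjusted over the 5 genes), the smallest that 3 replicates allow, so this design cannot pass a threshold of 0.05.

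Among 6075 protein-coding genes with at least 20 body windows, the median body level was 1.53 RPKM, with quartiles of 0.608 and 2.14. All 5 members lay below the lower quartile. The share of these genes with a lower level was 2.62% for *Sfmbt2*, 3.97% for *Gab1*, 8.02% for *Smoc1*, 19.8% for *Jade1* and 22.9% for *Slc38a4*. None of the 5 reached a level of 1, which 64.1% of the 6075 genes exceeded.

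**Figure D1:**
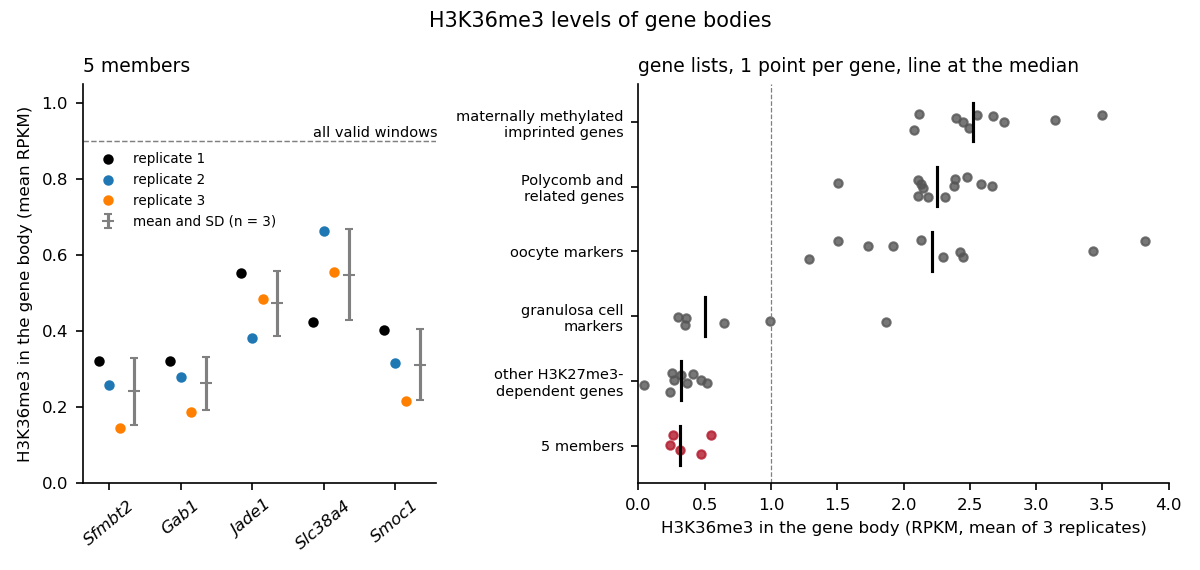
Left, mean H3K36me3 RPKM over the body windows of each gene in the 3 replicates (points) with the mean and SD, and the mean of all valid windows as a dashed line; right, body level of each gene of 6 lists (1 point per gene, mean of 3 replicates), with a line at the median of the list and a dashed line at 1 RPKM. The 5 members lie between 0.242 and 0.549 RPKM, and all 10 maternally methylated imprinted genes lie at 2.08 or above.

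H3K27me3 was called in 81 of 97 body windows of *Sfmbt2* (83.5%), 58 of 58 of *Gab1* (100%), 24 of 30 of *Jade1* (80%), 26 of 31 of *Slc38a4* (83.9%) and 72 of 80 of *Smoc1* (90%). The call was made in 27% of genic windows and 30% of all valid windows. Over the 6075 protein-coding genes the median share of body windows with H3K27me3 was 0.957%, and 12.4% of genes had it in at least 80% of their windows. The H3K27me3 and H3K4me3 calls came from earlier libraries of the same laboratory and are given here as 1 call per window without values per replicate, so no error is given for them.

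H3K36me3 was called in 0 body windows of *Sfmbt2*, 0 of *Gab1*, 3 of *Jade1*, 5 of *Slc38a4* and 1 of *Smoc1*, where 48.3% of genic windows and 31.8% of all valid windows were called. Of the 6075 genes, 8.44% had no called window, as *Sfmbt2* and *Gab1* did. At the reads of these loci no window of *Sfmbt2* or *Gab1* passed 1 RPKM in all 3 replicates. In *Sfmbt2* it was passed by 1, 5 and 3 windows in replicates 1, 2 and 3, and in *Gab1* by 0, 5 and 5 windows. The highest body window of *Sfmbt2* had 4, 4 and 2 reads (0.935 ± 0.567 RPKM) and that of *Gab1* 2, 4 and 3 reads (0.957 ± 0.659). In each of these genes 1 window was called without replicate 1, and 2 were called without replicate 3.

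The single *Smoc1* call, at chr12:81098001-81100000 in an intron 72.2 kb from the gene start, was also called for H3K27me3. Its values were 0.815, 0 and 2.37 RPKM from 6, 0 and 7 reads, so the mean of 1.06 rested on replicates 1 and 3 and on no read of replicate 2. Leaving out replicate 3 took the call away (0 windows), and leaving out replicate 1 gave 4 calls in the gene.

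**Figure D2:**
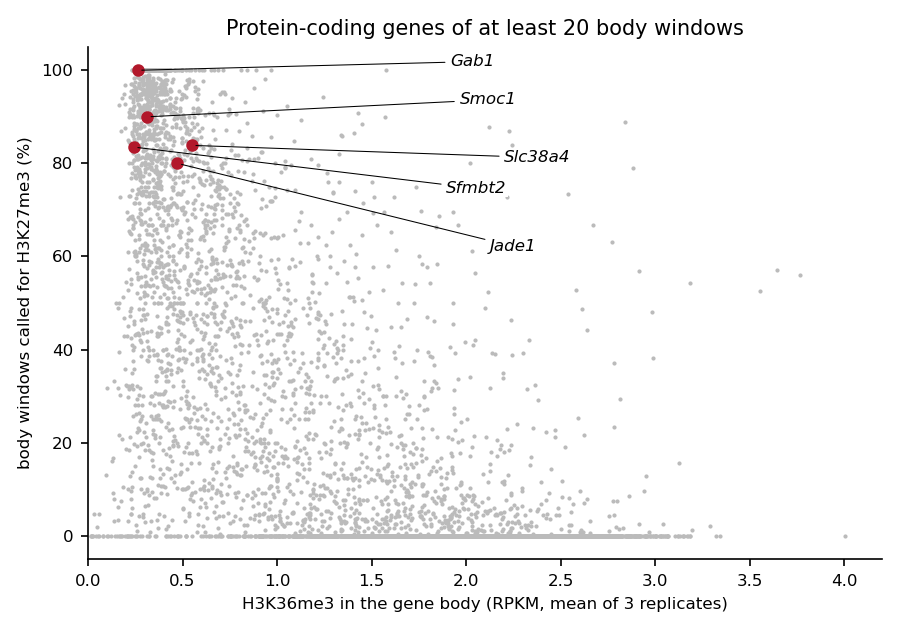
Each grey point is a protein-coding gene of at least 20 body windows (6075 genes), placed by its body H3K36me3 level (x axis, RPKM, mean of 3 replicates) and by the share of its body windows called for H3K27me3 (y axis, %); red points are the 5 members. The members sit in the upper left corner, below 0.55 RPKM and at 80% or more.

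Windows with H3K27me3 and no other mark were compared with all 218973 windows of that category in the genome, which had 0.391, 0.346 and 0.257 RPKM in replicates 1, 2 and 3 (0.331 ± 0.068). Both sides of this comparison are limited to means of at most 1 by the call itself. The 77 such windows of the *Sfmbt2* body had 0.264 RPKM, the 50 of *Gab1* 0.269, the 5 of *Jade1* 0.270, the 22 of *Slc38a4* 0.303 and the 62 of *Smoc1* 0.303. The log2 ratio to the genome ranged from -0.38 ± 0.93 in *Jade1* to -0.16 ± 0.17 in *Smoc1* and was below 0 in every replicate for *Sfmbt2*, *Gab1* and *Smoc1* (exact sign-flip permutation p = 0.25 for these 3 and 0.5 for the other 2, adjusted 0.417 and 0.5). The unmarked windows of the genome had a like level of 0.323 RPKM and those with H3K36me3 alone 2.17 RPKM.

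*Slc38a4* was the exception among the starts. The 23 annotated transcript starts of the members fell in 13 windows. H3K27me3 was called in 11 of these, together with H3K4me3 in 8 and alone in 3, and H3K36me3 in the other 2, both of *Slc38a4*. By the gene start, 1 window per gene, H3K27me3 was called in 4 of the 5 members and H3K36me3 in 1. Among the 6056 protein-coding genes of at least 20 windows whose start window was valid, this count gave 36.9% and 21.3%. Across *Sfmbt2*, *Gab1*, *Jade1* and *Smoc1*, start windows lay between 0 RPKM (*Jade1*, first start, no read in any replicate) and 0.626 ± 0.198 RPKM (*Smoc1*).

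The window of the main *Slc38a4* start (chr15:97054001-97056000) had 1.22, 3.57 and 2.37 RPKM in replicates 1, 2 and 3, from 9, 9 and 7 reads (2.39 ± 1.17). A second start 5.9 kb downstream had 0.951, 0 and 3.05 RPKM, from 7, 0 and 9 reads (1.33 ± 1.56). The 3 further starts, 24.7, 35.6 and 36 kb into the gene, had 0, 0.136 and 0.361 RPKM and were called for H3K27me3 alone. The gene thus held starts under both marks. Of the 250 bases printed above for the main promoter, 44 lie in the start window and 206 in the window before it, which was called for H3K36me3 as well but just past the threshold, with 0.951, 0.793 and 1.35 RPKM from 7, 2 and 4 reads (mean 1.03). Without replicate 3 that window fell below 1, to 0.872 RPKM.

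The first 10 kb of the *Slc38a4* body, 5 windows, had 1.20, 2.14 and 2.44 RPKM in replicates 1, 2 and 3 (1.92 ± 0.65, n = 3, 107 reads), with 95% intervals of 0.868 to 1.60, 1.41 to 3.11 and 1.71 to 3.37. The other 26 windows had 0.277, 0.381 and 0.195 RPKM (0.284 ± 0.093, 93 reads). The ranges did not overlap. The log2 ratio was 2.75 ± 0.80, 6.71-fold, and it was above 0 in 3 of 3 replicates (exact sign-flip permutation p = 0.25, 0.5 adjusted over the 4 genes tested). All 5 windows of the start region were called for H3K36me3 and none for H3K27me3. All 26 others were called for H3K27me3 and none for H3K36me3. The change came between neighbouring windows: the 5 next windows had a mean of 0.361 ± 0.179 RPKM.

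These 5 windows were the downstream part of a run of 12 called windows, chr15:97046001-97070000, which extended 24 kb, of which 10 kb lay in the gene and the rest upstream, where no other gene is annotated. The run was made of windows with a mean above 1 in these same replicates, so a level above 1 follows from that choice. Its level was 1.58, 2.08 and 2.31 RPKM (1.99 ± 0.37, 285 reads). None of its 12 windows carried H3K27me3, and 1 carried H3K4me3. Without replicate 1, 2 or 3 its mean stayed between 1.83 and 2.197 RPKM, with 10 to 12 of the 12 windows above 1, and 7 of the 12 were above 1 in each replicate. Its most upstream window rested on replicate 1, with 24 reads against 3 and 2. A separate called window 17 kb upstream of the start rested on replicate 2, with 12 reads (4.76 RPKM) against 2 in replicate 1 and 0 in replicate 3.

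A start window with H3K36me3 alone together with H3K27me3 in at least 80% of the body was found in 2 of the 6056 genes (0.033%). This rule was not among the planned results and describes the marks of *Slc38a4*, so the count is no independent support. *Slc38a4* was among the 2. The other was *Rap1gap*, which encodes a GTPase-activating protein for Rap1 and was named after its values were seen. Its body had H3K36me3 in 97% of windows as well, at 2.49 RPKM, so both marks were called in the same windows there. In *Slc38a4* they were called in different windows, 16.1% with H3K36me3 and 83.9% with H3K27me3.

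**Figure D3:**
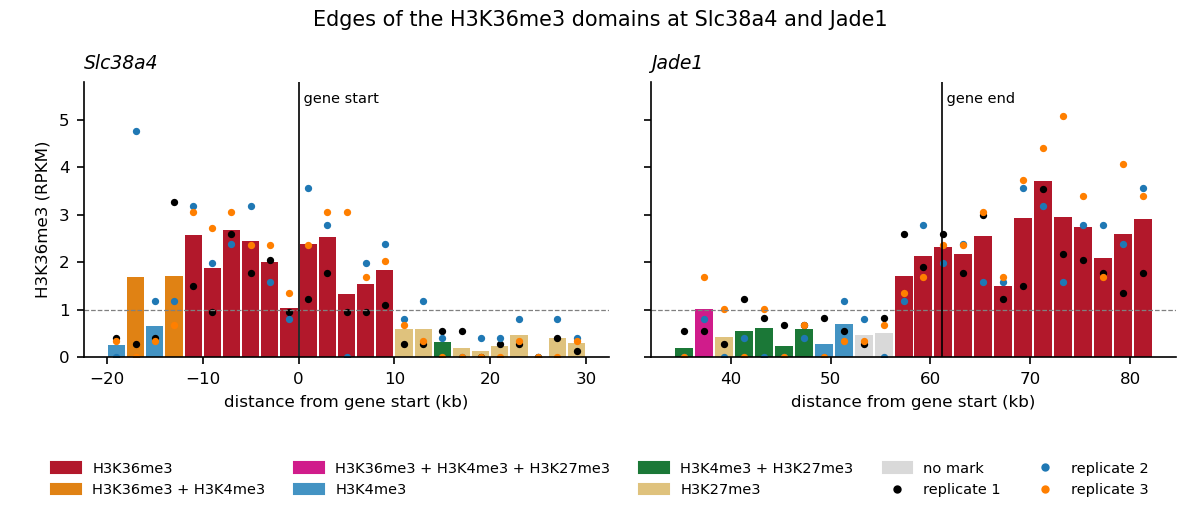
Bars show the mean H3K36me3 RPKM of each 2 kb window, coloured by its called marks, and points the 3 replicates, by distance from the gene start, around the start of Slc38a4 (left) and the end of Jade1 (right); the dashed line is at 1 RPKM. At Slc38a4 the run of windows called for H3K36me3 ends 10 kb into the gene, and at Jade1 the run begins 56.3 kb into the gene.

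The start region of the other genes did not stand out in the same way. In *Sfmbt2* the first 10 kb had 0.462, 0.159 and 0.0677 RPKM against 0.314, 0.263 and 0.151 in the rest of the body (log2 ratio -0.44 ± 0.89, exact permutation p = 0.5). In *Smoc1* it had 0.489, 0.317 and 0.271 RPKM against 0.397, 0.317 and 0.212 (log2 ratio 0.22 ± 0.19, exact permutation p = 0.5). In *Gab1* the values were 0.272, 0.713 and 0 RPKM against 0.325, 0.239 and 0.204, and since replicate 3 had no read in the start region (interval up to 0.2497 RPKM) no ratio was tested. In *Jade1* the start region was lower than the rest in 3 of 3 replicates, with 0.190, 0.159 and 0.406 RPKM against 0.625, 0.428 and 0.501 (log2 ratio -1.15 ± 0.75, exact permutation p = 0.25, and the adjusted p was 0.5 for each of these 3 genes).

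*Jade1* carried H3K36me3 at its other end. Its last 2 body windows, 4 kb with 2878 bases of *Jade1* exon, had 2.24, 1.98 and 1.52 RPKM (1.92 ± 0.36, 52 reads). The 28 windows before them had 0.432, 0.269 and 0.411 RPKM (0.371 ± 0.089, 142 reads). The last 2 windows were set apart by their H3K36me3 call in these same replicates, so this difference largely follows from that choice. The 11 windows of the downstream flank were all called for H3K36me3, each above 1 in all 3 replicates, at 2.06, 2.49 and 3.20 RPKM (2.58 ± 0.57). None of the 11 had H3K27me3. The upstream flank had 0.198, 0.504 and 0.215 RPKM (0.306 ± 0.172), with H3K27me3 in 11 of 11 windows, and 1 of these was called for H3K36me3 as well, with 3, 5 and 2 reads.

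The called windows at the end of *Jade1* belonged to a run of 20, chr3:41612001-41652000, 40 kb long, at 2.27, 2.497 and 2.79 RPKM (2.52 ± 0.26, 625 reads). All 20 windows stayed above 1 whichever replicate was left out, and 19 were above 1 in each replicate. As at *Slc38a4*, these windows were chosen by a mean above 1 in the same replicates, so the counts are no independent support. The run continued into *Sclt1*, a gene of the centriole that is transcribed toward *Jade1* from the opposite strand and ends 9.86 kb away. *Sclt1* had a body level of 1.60, 1.70 and 1.89 RPKM (1.73 ± 0.15), with H3K36me3 in 43 of 58 windows and H3K27me3 in none. The ChIP signal has no strand, so transcripts of the 2 genes cannot be told apart by it.

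Among the 5 bodies, that of *Jade1* had the highest share of bivalent windows. H3K4me3 and H3K27me3 without H3K36me3 were called in 18 of its 30 windows (60%), against 4 of 97 in *Sfmbt2* (4.12%), 8 of 58 in *Gab1* (13.8%), 4 of 31 in *Slc38a4* (12.9%) and 9 of 80 in *Smoc1* (11.2%), and in 8.72% of genic windows. A further 2 *Jade1* windows had H3K4me3 alone and 1 had all 3 marks, so that 70% carried H3K4me3 in any combination, against 26.1% of genic windows. Runs of at least 3 windows with H3K4me3 and H3K27me3 numbered 4 in *Jade1*, the longest of 14 kb. Outside *Jade1* there was 1 such run, of 6 kb at the start of *Sfmbt2*. The third *Jade1* window called for H3K36me3 in its body carried all 3 marks, at a mean of 1.01 RPKM, just past the threshold.

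**Figure D4:**
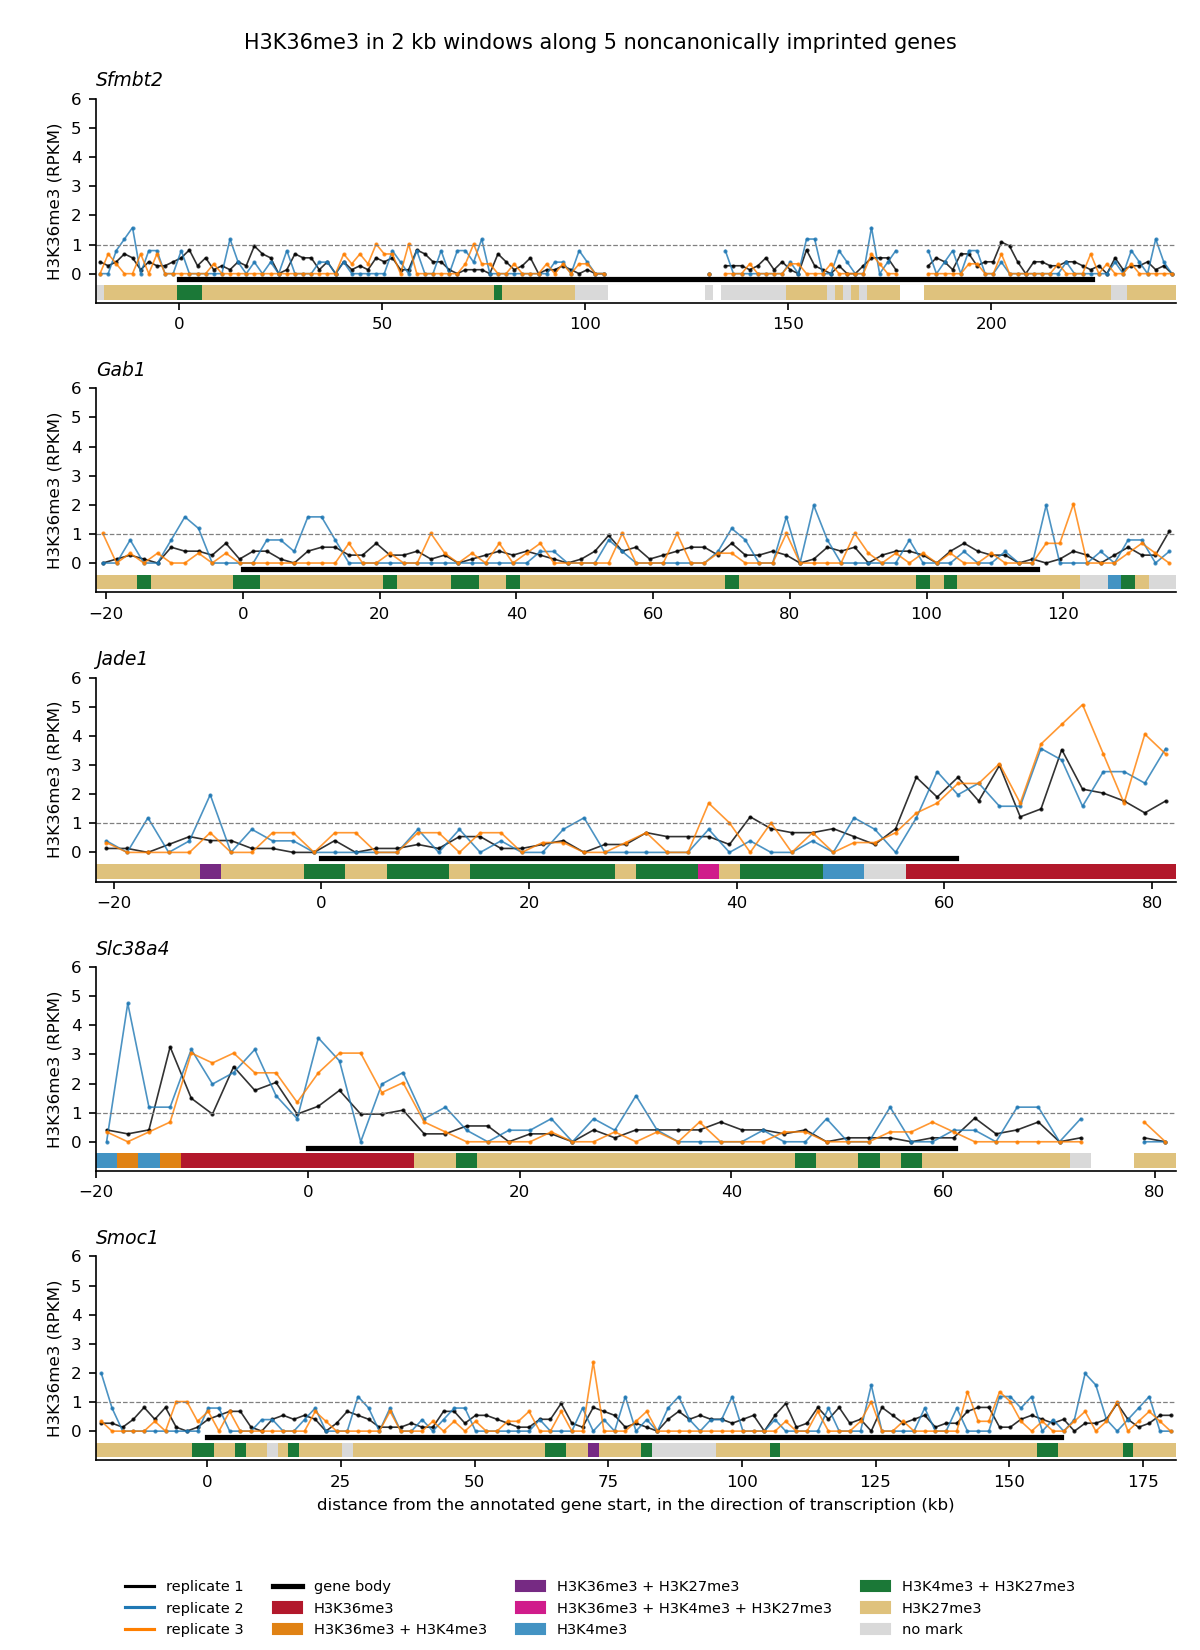
H3K36me3 RPKM of each 2 kb window (lines, 3 replicates) by distance from the gene start in the direction of transcription, for the 5 genes with 20 kb on either side; the black bar is the gene body, the dashed line is at 1 RPKM, and the strip below gives the called marks of each window, with gaps where no valid window exists. Long stretches above 1 RPKM appear at the start of Slc38a4 and at the end of Jade1, and the strips of Sfmbt2, Gab1 and Smoc1 are mostly H3K27me3.

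In *Sfmbt2* H3K27me3 was unbroken over 58 windows (116 kb, chr2:10352001-10468000) at 0.339, 0.294 and 0.193 RPKM (0.275 ± 0.075, 221 reads), 4 of them with H3K4me3 as well. Of these, 36 in a row (72 kb, chr2:10376001-10448000) had no other mark, at 0.332, 0.286 and 0.216 RPKM (0.278 ± 0.058, 137 reads). A further run of 23 windows (46 kb) with H3K27me3 alone went past the end of the gene at 0.234 ± 0.144 RPKM. Its start lay in the 6 kb bivalent run, with 0.543, 0.264 and 0 RPKM. On the opposite strand the noncoding transcript *Gm13261* overlaps this start, and 16 of its 17 windows were called for H3K27me3, at 0.395 ± 0.171 RPKM.

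The middle of *Sfmbt2* holds 119 annotated microRNA genes between positions 10465287 and 10518279 of chromosome 2. Of the 113 windows that the gene body could hold, 16 were missing from the valid set, and 12 of them formed a gap of 24 kb (chr2:10476001-10500000) with 57 of the microRNA genes. A further missing window held 5 of them, and a gap of 6 kb farther downstream held none. The 15 valid windows across the cluster had 0.190, 0.159 and 0.0902 RPKM (0.146 ± 0.051, 31 reads), and H3K27me3 was called in 2 of them. No read of any replicate fell in 3 of them, and how well reads map to these 15 windows was not tested. The marks of the missing windows were not analysed here.

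*Gab1* was covered by H3K27me3 from 20 kb upstream to past its end, 11 of 11 upstream windows and all 58 body windows. With the first downstream windows this made an unbroken stretch of 72 windows (144 kb, chr8:80758001-80902000) up to the edge of the windows taken, which was the longest within the windows of the 5 loci. Its level was 0.307, 0.314 and 0.230 RPKM (0.284 ± 0.046, 269 reads). Its upstream flank had 0.272, 0.396 and 0.215 RPKM (0.294 ± 0.093) and its downstream flank 0.326, 0.436 and 0.474 RPKM (0.412 ± 0.077). H3K27me3 was called in 5 of the 10 downstream windows. The start window, shared by both annotated transcripts, held a single read in replicate 1 and none in the others.

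In *Smoc1* H3K27me3 extended through both flanks, 10 of 10 windows upstream and 11 of 11 downstream, and the longest unbroken stretch with the call, 43 windows (86 kb, chr12:81122001-81208000), ran from inside the gene to the edge of the windows taken. It had 0.417, 0.406 and 0.268 RPKM (0.363 ± 0.083, 210 reads), and 4 of its windows carried H3K4me3 as well. The one longer interruption was a stretch of 12 kb without any called mark, 84.2 to 94.2 kb from the start by window midpoints, with 0.407, 0.462 and 0 RPKM. H3K27me3 went on into the neighbouring gene *Slc8a3*, a sodium-calcium exchanger on the opposite strand 11.5 kb away, which had H3K27me3 in 66 of 68 windows and a level of 0.413, 0.484 and 0.269 RPKM (0.389 ± 0.110).

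**Figure D5:**
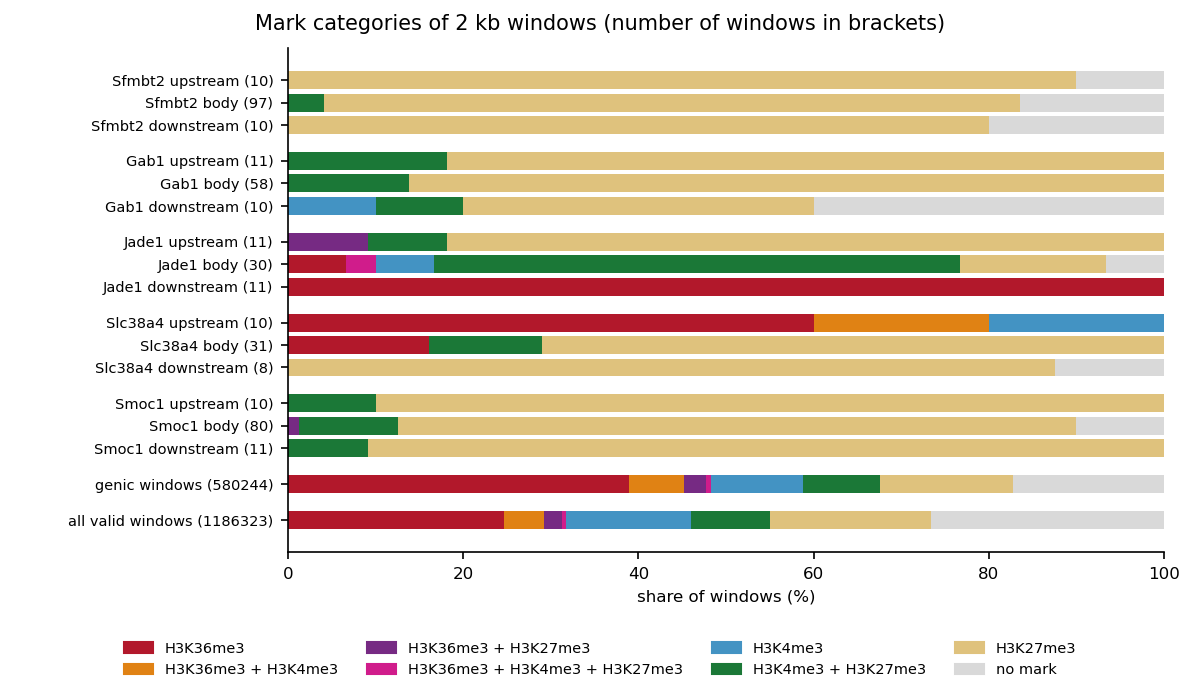
Share of 2 kb windows (x axis, %) in each combination of called marks, for the upstream flank, body and downstream flank of each gene and, below, for all genic windows and all valid windows (number of windows in brackets). Bodies of the 5 genes are mostly H3K27me3 with or without H3K4me3, and H3K36me3 fills the downstream flank of Jade1 and most of the upstream flank of Slc38a4.

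Compared with its own flanks, the body was lower in 3 of 3 replicates for *Jade1* (log2 ratio -1.60 ± 0.50, 0.473 against 1.44 RPKM) and for *Slc38a4* (-0.95 ± 0.18, 0.549 against 1.06 RPKM), and in both the H3K36me3 run lay in 1 of the flanks. Without the flank windows that lie in another gene, *Sclt1* included, the *Jade1* ratio was -0.97. For *Gab1* (-0.44 ± 0.50), *Smoc1* (-0.31 ± 0.40) and *Sfmbt2* (-0.22 ± 0.41) the ratio was above 0 in replicate 1 and below 0 in replicates 2 and 3. The exact sign-flip permutation p was 0.25 for *Jade1* and *Slc38a4*, 0.5 for *Gab1* and *Smoc1* and 0.75 for *Sfmbt2*, with adjusted values of 0.625 for the first 4 and 0.75 for *Sfmbt2*. The *Sfmbt2* ratio turned to 0.010 without replicate 2 and to 0.43 without the flank windows that lie in another gene.

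Of other genes listed for H3K27me3-dependent imprinting, 9 were taken for comparison. Their median body level was 0.320 RPKM (0.357, 0.313 and 0.282 in replicates 1, 2 and 3), against 0.312 for the members. None of the 9 was above 1 RPKM, where 53.6% of all protein-coding genes of any length were. H3K27me3 was called in at least 80% of body windows in 8 of the 9, against 12.4% of protein-coding genes of at least 20 windows. Some of the 9 have fewer windows than that, so the 2 shares are not fully alike. The highest was *Bbx*, a transcription factor with an HMG box, at 0.515 RPKM with H3K27me3 in 10% of its windows. The lowest was *Sox21*, another HMG box factor, at 0.0453 RPKM over 2 windows. The start window was called for H3K27me3 in 9 of 9, against 33% of start windows of all protein-coding genes.

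The 10 imprinted genes with a maternally methylated promoter had a median of 2.53 RPKM (2.28, 2.52 and 2.77), from *Nap1l5* at 2.08 to *Zrsr1* at 3.50. These extremes are imprecise, since *Nap1l5* had only 1 body window and *Zrsr1* 2. All 10 were above 1, as were 53.6% of all protein-coding genes, and none of the 10 had a body window with H3K27me3. Over the 6075 protein-coding genes of at least 20 windows, the median share of such windows was 0.957%, with a lower quartile of 0. Few or no such windows are thus common among genes. The start window was called for H3K36me3 in 7 of the 10, against 23% over all protein-coding genes. The median of this list was 8.33-fold that of the members (log2 ratio 3.06 ± 0.59 over replicates, above 0 in 3 of 3), and the ranges of the 2 lists did not overlap. Of the genes above, *Slc38a4* alone among the members shared H3K36me3 at the start with that list.

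*Sfmbt2* is itself a Polycomb group gene, and its body level lay below those of all 12 listed genes of Polycomb complexes and related proteins. These had a median of 2.25 RPKM, from *Rnf2*, the catalytic subunit of Polycomb repressive complex 1, at 1.51 to *Pcgf1*, a subunit of a variant of that complex, at 2.67. The level of *Pcgf1* rested on 1 body window. All 12 were above 1, as were 53.6% of all protein-coding genes, and of the 12 only *Phf19* had any body window with H3K27me3. The median share of such windows over the 6075 protein-coding genes of at least 20 windows was 0.957%, with a lower quartile of 0. Their near absence is thus common among genes.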

How the data were processed

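H3K36me3 was profiled in 3 GV oocyte pools, 1 group. The authors mapped reads to GRCm38 with Bowtie2 2.2.9, removed windows with extreme input coverage and deposited an RPKM value per valid 2 kb window and replicate. Removal of duplicates is not given in the sources used here. Deposited values were whole multiples of a step per library (0.136, 0.396 and 0.338 RPKM), so reads were recovered (100% whole within 0.001 read). A value above 1 takes 8, 3 and 3 reads. The steps fit CPM, without division by window length, better than RPKM, and values were used as proportional to it. A second deposited file names the called marks of each window and holds no measurement. Windows not listed there were treated as unmarked. Its H3K36me3 call equalled a mean RPKM above 1, with 0 differences.

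Genes came from GENCODE M21 on GRCm38. A window belonged to a body if its midpoint lay in the gene, otherwise to a flank. Levels are linear means over windows, and log2 ratios had no pseudocount. The two-sided exact sign-flip test over 3 replicates was adjusted by Benjamini-Hochberg over the members tested. The calculations (Python 3.11.15, numpy 2.4.6, pandas 2.3.3) were tested on simulated data. Members and gene lists were chosen with earlier results of these data known. The genes named are the members, genes overlapping their flanks, the highest window of each member, windows with transcript starts, runs of at least 3 windows, the 2 genes most alike to each member, and the highest and lowest gene of each list. Alternatives left out each replicate, and changed the window summary, flank, threshold and start region.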

Additional observations from a re-analysis of the deposited data

How the results depend on the processing

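Of 129 alternative values of 24 results, 114 counted as the same, 13 moved further and 2 turned the direction. A ratio counted as the same if it kept its direction, and a level if it stayed within the replicate SD. A number of called windows did so if it stayed within 1.5 times the main number. The *Sfmbt2* body against its flanks (log2 ratio -0.22) turned to 0.010 without replicate 2 (range without 1 replicate -0.37 to 0.010) and to 0.43 without flank windows in another gene, which also took the *Jade1* ratio from -1.60 to -0.97. The *Slc38a4* body level of 0.549 RPKM became 0.290 as a median over windows. Numbers of body windows called for H3K36me3 ranged, without 1 replicate, from 0 to 2 in *Sfmbt2*, 0 to 2 in *Gab1* and 0 to 4 in *Smoc1*, where 4 came without replicate 1, 2 without replicate 2 and 0 without replicate 3. In *Sfmbt2* and *Gab1* alike, 1 window was called without replicate 1 and 2 without replicate 3. At a mean above 2 RPKM, 1 window was left in *Jade1*, 2 in *Slc38a4* and 0 in *Smoc1*. When each replicate had to pass 1, 3 were left in *Slc38a4* and 0 in *Smoc1*. The H3K27me3 counts stayed within 1.5 times under both of their alternatives. The leave-one-out values of the H3K36me3 runs at *Slc38a4* and *Jade1* were added after seeing the data. For *Gab1* no ratio of the start region to the rest was computed, since replicate 3 had no read there. Samples could not be paired with each other because all belong to a single group, while ratios of regions were taken within each replicate. Depth limits single windows: a median window of these loci held 2 reads or fewer in each replicate.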

Other observations

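Genes with the most similar marks were searched for each member by the shares of the 8 mark categories in the upstream flank, body and downstream flank (24 shares, Euclidean distance, 6061 protein-coding genes of at least 20 windows). Closest to *Sfmbt2* were *Mdfic* (distance 0.0904; H3K27me3 in 90.2% of body windows, 0.286 RPKM) and *Kctd16* (0.157; 76.9%, 0.253 RPKM), where the median distance of all genes was 1.77. Closest to *Smoc1* were *Atxn10* (0.0911; 93.8%, 0.272 RPKM) and *Cacng2* (0.0948; 92.2%, 0.316 RPKM), with a median of 1.81. *Gab1* was followed by *Kif6* (0.278) and *Col5a1* (0.319), with a median of 1.63, and *Jade1* by *Pcdhgb4* (0.293) and *Dnm1* (0.371), with a median of 1.57. For *Slc38a4* the nearest genes were farther away, *Runx2* at 0.397 and *Prkar1b* at 0.451, with a median of 1.55. The distances are a description of called categories, with 1 call per window.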
